A study of Homo sapiens with 4 samples.

Results

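The nuclear genes of the mitochondrial respiratory chain and the ATP synthase were compared, complex by complex, between T-47D cells given a p-27-5p mimic and T-47D cells given a pre-miR negative control. T-47D is a luminal breast cancer cell line that carries oestrogen and progesterone receptors. A microRNA mimic is a short synthetic RNA duplex that enters the silencing machinery as a mature microRNA would, and p-27-5p is described by the submitters as an artificial microRNA. The mimic group consisted of 2 arrays of cells transfected with the mimic at 200 nM, and the control group of 2 arrays of cells transfected with the negative control, whose concentration is not given separately. Both groups were grown in DMEM with serum and transfected with TurboFect, a polymer reagent, so that the reagent itself is common to all 4 arrays. Total RNA was hybridised to exon arrays, and each value is a log2 probeset intensity. The labels do not say whether same-group arrays stand for separate cultures, and p-values therefore rest on array-to-array spread that may be wholly technical.

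The genes were chosen by name: symbols of the platform annotation that start with NDUFA, NDUFB, NDUFC, NDUFS or NDUFV and a digit, SDHA to SDHD, CYC1, and symbols that start with UQCR, COX4 to COX8 or ATP5. The rule used no measured value. It took in 79 of the 16573 gene symbols that a probeset names alone, read by 453 probesets. By complex these were 33 genes of complex I, 4 of complex II, 7 of complex III, 15 of complex IV and 15 of complex V, and 5 genes that share a prefix but encode no subunit. NDUFA4, renamed COXFA4 because its protein is a subunit of cytochrome c oxidase, was counted with complex IV. A total of 21 of the 79 platform symbols were replaced by their current name, most of them ATP synthase genes. A gene's level was the mean of its probesets that averaged at least 4.08 across the arrays, which is the 25th percentile of all deposited values. On that filter 76 of the 79 genes could be tested, and NDUFB3, COX6B2 and ATP5MGL could not. NDUFV2, NDUFB4, UQCRH, COX6A1 and COX7C, which also encode subunits, and the subunits encoded by mitochondrial DNA were not analysed here.

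The respiratory chain sits in the inner mitochondrial membrane and hands electrons from NADH and succinate down to oxygen. Complex I takes electrons from NADH and complex II from succinate, which it oxidises as part of the citric acid cycle. Both pass them to ubiquinone, complex III passes them on to cytochrome c, and complex IV reduces oxygen to water. Complexes I, III and IV pump protons out of the matrix, and complex V, the ATP synthase, lets them back through a rotating ring to make ATP. Apart from complex II, each complex also holds core subunits that mitochondrial DNA encodes, so nuclear and mitochondrial gene products have to be made in step. Many of the nuclear genes have promoters with sites for NRF1, for the ETS family factor GABP (NRF2) and for YY1.

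Promoter sequences are shown for 1 gene of each complex, the gene with the smallest p among those whose promoter was in the RefSeq table, so that each can be read beside its level. Each sequence is the 250 bases before the annotated start, 5′ to 3′ on the gene's strand, from RefSeq on GRCh38.p14. Capitals mark the core of the NRF1 site (GCGCANGC), the core of the ETS site (CCGGAAG) or the core of the YY1 site (AAGATGG), searched on both strands, so that a match on the other strand reads as the reverse complement. The 5 stretches lie at chr19:1383657-1383906, chr11:112086623-112086872, chr5:132866392-132866641, chr11:63974370-63974619 and chr17:48892537-48892786, in the order printed and all on the plus strand.
NDUFS7: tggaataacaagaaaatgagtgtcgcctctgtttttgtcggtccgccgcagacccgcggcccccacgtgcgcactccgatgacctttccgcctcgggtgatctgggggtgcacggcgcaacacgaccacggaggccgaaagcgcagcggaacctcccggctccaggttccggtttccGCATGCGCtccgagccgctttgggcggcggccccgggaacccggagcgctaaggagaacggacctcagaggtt
SDHD: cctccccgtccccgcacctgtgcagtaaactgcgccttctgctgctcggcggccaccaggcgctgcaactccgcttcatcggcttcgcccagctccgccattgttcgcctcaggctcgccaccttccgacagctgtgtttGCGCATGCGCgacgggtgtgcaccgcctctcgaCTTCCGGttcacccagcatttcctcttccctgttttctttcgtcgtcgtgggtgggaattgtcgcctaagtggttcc
UQCRQ: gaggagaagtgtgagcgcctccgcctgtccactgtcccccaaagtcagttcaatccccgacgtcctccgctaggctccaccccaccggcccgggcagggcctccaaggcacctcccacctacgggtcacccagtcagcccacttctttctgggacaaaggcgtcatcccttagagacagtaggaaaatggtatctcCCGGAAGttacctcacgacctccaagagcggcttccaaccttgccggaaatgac
COX8A: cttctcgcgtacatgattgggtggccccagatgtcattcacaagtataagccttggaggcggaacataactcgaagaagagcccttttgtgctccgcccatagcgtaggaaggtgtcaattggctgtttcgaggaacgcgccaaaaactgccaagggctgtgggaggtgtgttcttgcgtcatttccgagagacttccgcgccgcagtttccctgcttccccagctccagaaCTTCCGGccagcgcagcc
ATP5MC1: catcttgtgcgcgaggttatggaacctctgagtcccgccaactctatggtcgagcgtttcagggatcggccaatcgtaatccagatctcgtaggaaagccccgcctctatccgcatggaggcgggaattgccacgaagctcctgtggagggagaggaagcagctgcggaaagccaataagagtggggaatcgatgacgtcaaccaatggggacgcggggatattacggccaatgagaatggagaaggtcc

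The NDUFS7 stretch held 1 NRF1 core, on the minus strand and 73 bases before the start, and its window also held a YY1 core 18 bases after the start. In SDHD, 2 overlapping NRF1 cores on opposite strands formed a palindrome, and an ETS core followed closer to the start. UQCRQ and COX8A each held 1 ETS core, 54 and 18 bases before the start, and the ATP5MC1 stretch held none of the 3 motifs. Over the whole window, 250 bases before to 50 after the start, 60 of the 74 subunit genes had a promoter in the table. An NRF1 core was found in 41.7% of these 60 genes, against 21.3% of the 12593 tested genes with a promoter, an ETS core in 30% against 17.9%, and a YY1 core in 28.3% against 8.29%. None of the 12 complex IV genes with a promoter held the YY1 core, whereas 9 of 29 complex I genes and 5 of 11 complex V genes did. Among the 23 subunit genes with a promoter that were lower at an unadjusted p under 0.05, 7 held an NRF1 core, 7 an ETS core and 4 a YY1 core, against 17, 11 and 13 of the other 35 tested subunit genes. These matches describe letters in a window and are not measured binding sites, and no test was made between these sets.

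Most subunit genes had a lower value in the mimic cells, but the differences were small and none passed the threshold of the study-wide test. Of the 71 subunit genes tested, 62 had a mean below the control mean, as 49.7% of all genes did, and 9 above it, and the median difference was -0.29 on the log2 scale, mimic minus control. In limma's moderated test with Benjamini-Hochberg adjustment over 15717 genes, 0 of the 76 genes reached an adjusted p of 0.05, where 2.31% of all genes did, 0.789% lower and 1.52% higher. The smallest adjusted p, 0.0637, belonged to NDUFS7, and 7 genes were lower at an adjusted p under 0.1 (3.35% of all genes). At an unadjusted p under 0.05, 29 of the 76 genes were lower, where 12.8% of all genes were, and 2 were higher, SDHD and COX8C, where 7.66% of all genes were. COX8C passed the filter only through its mimic values, and over all its probesets its difference was 0.13. In 51 of the 76 genes both mimic values were under both control values, which held for 29.5% of all genes, and in 4 they were over both, which held for 20.5%. All 15717 genes had a median difference of 0.00, with quartiles of -0.20 and 0.19. The differences depended on single arrays. That of SDHC was -0.78 with all arrays, -1.02 without control replicate 1 and smaller in size than -0.78 without control replicate 2. That of UQCRFS1 was -0.65 with all arrays, -0.92 without control replicate 2 and smaller in size than -0.65 without control replicate 1. COX6A2 went from 0.27 to 0.64 without control replicate 1 and changed sign without control replicate 2. Such fits leave 1 array in a group, so only their differences are given here. Counts of calls from them, listed with the processing alternatives, assume that the lone array varies like the other group. In RNA of a whole culture, fewer cells that express a gene and less of its RNA per cell cannot be told apart.

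By complex, the medians of complexes III and I were lower than those of complexes IV, II and V. The medians were -0.45 for the 7 genes of complex III, -0.33 for 32 of complex I, -0.21 for 14 of complex IV, -0.19 for the 4 of complex II and -0.18 for 14 of complex V. Against the mean of the control arrays, the median complex I gene stood at -0.41 and -0.29 on the mimic arrays and at -0.07 and 0.07 on the control arrays. For complex III the same medians were -0.40 and -0.45 on the mimic arrays, against -0.05 and 0.05 on the control arrays. For complex V they were -0.16 and -0.25 on the mimic arrays, against -0.00 and 0.00 on the control arrays. All 7 tested complex III genes had both mimic values below both control values, as 29.5% of all genes did. So did 24 of 32 genes of complex I, 3 of 4 of complex II, 8 of 14 of complex IV and 7 of 14 of complex V. Among all genes that share rose with level, from 7.57% under level 5 to 60% over 11. In complex IV the genes without overlap, mimic lower, were 8 of its 9 ubiquitous genes, whose median difference was -0.27, and 0 of its 5 tested tissue-restricted genes. The order of complexes II, IV and V changed with the setting, and without mimic replicate 2 the median of complex I, -0.41, was below that of complex III, -0.40. Differences between the complexes were not tested, since genes measured on the same 4 arrays are not replicates.

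**Figure D1:**
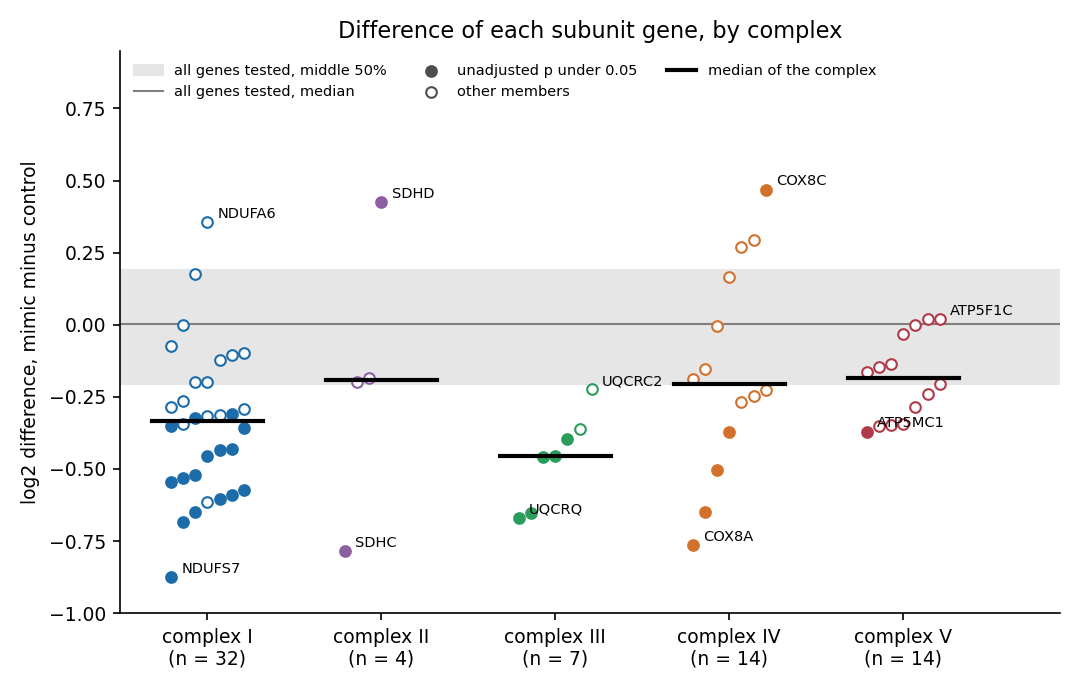
Log2 difference, mimic minus control, of each tested subunit gene, in columns for complexes I to V, with the median of each complex as a bar. The complex III genes all lie below 0, with a median of -0.45, while the complex V genes lie between -0.37 and 0.02.

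Complex I genes are described by the part of the enzyme they build. The Q module carries electrons to ubiquinone, and its 4 tested genes had a median difference of -0.47. NDUFS7, which holds the last iron-sulfur cluster before ubiquinone, had 6.33 and 6.65 on the mimic arrays, against 7.32 and 7.41 on the control arrays. Both mimic values were below both control values, and the difference was -0.88 (SE 0.156, 95% interval -1.27 to -0.48, n = 2 arrays each, limma adjusted p = 0.0637), or 0.545 of the control level. NDUFS8, which holds another pair of the clusters in that path, had 7.91 and 8.27 on the mimic arrays, against 8.49 and 8.87 on the control arrays, a difference of -0.59 (limma adjusted p = 0.189). NDUFA5 differed by -0.34, and NDUFS3, a core subunit of the module, by -0.11, neither of them under an unadjusted p of 0.05.

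The N module oxidises NADH, and 8 of its 9 tested genes had a lower mean in the mimic cells, 5 of them at an unadjusted p under 0.05 (12.8% of all genes). NDUFA7, an accessory subunit, had 6.94 and 7.09 on the mimic arrays, against 7.68 and 7.72 on the control arrays, a difference of -0.68 (SE 0.126, limma adjusted p = 0.0689). NDUFS1, the large iron-sulfur subunit, had 8.86 and 8.92 on the mimic arrays, against 9.32 and 9.50 on the control arrays, a difference of -0.52. NDUFV1, which binds NADH and the flavin, differed by -0.35 (limma adjusted p = 0.188). NDUFA6, an accessory subunit of the LYR motif family, went the other way by value: it had 9.33 and 9.41 on the mimic arrays, against 8.87 and 9.16 on the control arrays. Its 2 mimic values lay above both control values, and its difference of 0.36 had a 95% interval of -0.02 to 0.73 (limma adjusted p = 0.263). NDUFS4, whose loss causes Leigh syndrome, differed by -0.00 with an interval of -0.48 to 0.48, so that changes of that size could not be seen.

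The membrane arm holds the proton pumps, whose accessory subunits are the nuclear genes measured here. All 9 tested genes of the distal pump had both mimic values below both control values, as 29.5% of all genes did, with a median difference of -0.36. An unadjusted p under 0.05 was reached by 6 of them, and by 12.8% of all genes with a lower value. NDUFB6 had 5.99 and 6.06 on the mimic arrays, against 6.60 and 6.75 on the control arrays, a difference of -0.65 (SE 0.127, limma adjusted p = 0.0753). NDUFB7, a subunit of the intermembrane-space side, had 7.36 and 7.31 on the mimic arrays, against 7.84 and 7.93 on the control arrays, a difference of -0.55 (limma adjusted p = 0.0957). NDUFB11 and NDUFB2 differed by -0.57 and -0.53, and the other 5 by between -0.36 and -0.26. The 8 genes of the proximal pump had a median of -0.25, and NDUFA3, NDUFC1 and NDUFA1 were under an unadjusted p of 0.05, at -0.45, -0.43 and -0.43. NDUFA11, placed in no module here, had 5.91 and 6.01 on the mimic arrays, against 6.21 and 6.94 on the control arrays. Its difference of -0.61 became -0.98 without control replicate 1 and was smaller in size than -0.61 without control replicate 2. NDUFA9, likewise in no module here, differed by 0.17, with both mimic values above both control values.

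Complex II, succinate dehydrogenase, has 4 subunits, all nuclear, and all 4 were measured. SDHA and SDHB form the catalytic head with the flavin and the iron-sulfur clusters, and SDHC and SDHD anchor it in the membrane. SDHC had 9.04 and 9.20 on the mimic arrays, against 9.67 and 10.14 on the control arrays, a difference of -0.78 (SE 0.191, limma adjusted p = 0.111). Its difference was -1.02 without control replicate 1 and smaller in size than -0.78 without control replicate 2. SDHD had 6.73 and 6.86 on the mimic arrays, against 6.44 and 6.30 on the control arrays, a difference of 0.42 (SE 0.13, 95% interval 0.10 to 0.75, limma adjusted p = 0.163). The 2 anchor subunits therefore lay on opposite sides of their controls with no overlap between groups in either gene, and each was read by 1 probeset only. SDHA had 11.30 and 11.13 on the mimic arrays, against 11.43 and 11.36 on the control arrays, whereas SDHB had 8.14 and 8.17 on the mimic arrays, against 8.42 and 8.30 on the control arrays. The differences of these head subunits were -0.18 and -0.20, with intervals that include 0.

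Complex III, the cytochrome bc1 complex, was the complex in which every tested gene had a lower value in the mimic cells, without overlap between the groups. UQCRQ, a small subunit that binds cytochrome b, had 9.45 and 9.37 on the mimic arrays, against 10.03 and 10.13 on the control arrays. Its difference was -0.67 (SE 0.123, 95% interval -0.98 to -0.36, limma adjusted p = 0.0689), or 0.629 of the control level. UQCRC1, a core scaffold subunit, had 9.12 and 9.0 on the mimic arrays, against 9.55 and 9.48 on the control arrays, a difference of -0.46 (limma adjusted p = 0.133). CYC1, the haem-carrying cytochrome c1, had 10.59 and 10.48 on the mimic arrays, against 10.92 and 10.95 on the control arrays, a difference of -0.40. UQCRFS1, the Rieske iron-sulfur protein, was read by 1 probeset and had 5.54 and 5.71 on the mimic arrays, against 6.54 and 6.01 on the control arrays. Its difference of -0.65 became -0.92 without control replicate 2 and was smaller in size than -0.65 without control replicate 1. UQCR11 differed by -0.45 and was under an unadjusted p of 0.05, while UQCRB, at -0.36, and UQCRC2, the second core subunit, at -0.22, were not.

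Complex IV, cytochrome c oxidase, has nuclear subunits that occur in ubiquitous and tissue-restricted forms. The 9 ubiquitous genes all had a mean below control, with a median of -0.27, 4 under an unadjusted p of 0.05 (12.8% of all genes, lower) and 8 without overlap between the groups (29.5%). COX8A, the ubiquitous form of the smallest subunit, had 9.95 and 10.13 on the mimic arrays, against 10.73 and 10.89 on the control arrays. Its difference of -0.76 (SE 0.138, 95% interval -1.11 to -0.41, limma adjusted p = 0.0654) corresponds to 0.589 of the control level, and with the replicate number as a block its adjusted p was 0.0478. NDUFA4 (COXFA4) had 7.30 and 7.33 on the mimic arrays, against 7.92 and 8.02 on the control arrays, a difference of -0.65 (SE 0.121, limma adjusted p = 0.0699). COX5A had 9.73 on each mimic array, against 10.13 and 10.07 on the control arrays, a difference of -0.37. COX5B had 7.88 and 7.45 on the mimic arrays, against 8.02 and 8.31 on the control arrays, a difference of -0.50. COX4I1, the regulatory subunit that binds ATP, differed by -0.15, and COX7A2, COX7B and COX6C by -0.25, -0.27 and -0.23. COX6B1, which joins the monomers of the enzyme, had 11.06 and 11.11 on the mimic arrays, against 11.12 and 11.07 on the control arrays, a difference of -0.00 (95% interval -0.30 to 0.30). Counting NDUFA4 with complex I, where its old name put it, gave a complex I median of -0.34 over 33 genes and a complex IV median of -0.19 over 13.

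Most tissue-restricted partners of complex IV had a control level within that of genes that this cell line should not express. The 12 tested genes typical of liver and neurons had a median control level of 4.78 and a highest of 5.71, and the control means of COX8C, COX4I2, COX7B2 and COX7A1 did not exceed that highest value. The mimic mean of COX7B2 was above it. COX8C, a testis form, had 4.58 and 4.48 on the mimic arrays, against 4.17 and 3.95 on the control arrays, a difference of 0.47 (limma adjusted p = 0.152) carried by 1 probeset of 4. That probeset averaged 4.06 on the control arrays, under the filter level of 4.08, and so was kept only through its mimic values; over all 4 probesets the difference was 0.13 (limma adjusted p = 0.643), with overlap between the groups. COX6A2, the heart and muscle form, had 6.85 and 6.99 on the mimic arrays, against 7.02 and 6.28 on the control arrays, so that the groups overlapped. Its difference of 0.27 was 0.64 without control replicate 1 and -0.10 without control replicate 2. The median difference of these 5 genes was 0.27, and that of the 12 liver and neuron genes was 0.17, both above the median of all genes. Each set holds a gene kept only through its mimic values, COX8C in the first and CYP3A4, with a control mean of 3.78, in the second. The part of the filter in these medians was not tested. COX4I2, the lung form, differed by -0.19, COX7B2 by 0.30 and COX7A1 by 0.17, and the groups overlapped in all 3. Without the filter COX4I2, COX6A2, COX7A1, COX7B2 and COX8C differed by 0.05, 0.18, 0.16, 0.11 and 0.13.

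The ATP synthase genes of complex V differed by between -0.37 and 0.02. Of its 14 tested genes, 12 had a lower mean in the mimic cells, and 1 was lower at an unadjusted p under 0.05, where 12.8% of all genes were. In 7 there was no overlap between the groups with mimic lower, as in 29.5% of all genes. At levels of 8 to 9, where the complex V median of 8.74 lay, that share was 45.7% of all genes. The gene under that p was ATP5MC1, which had 7.59 and 7.58 on the mimic arrays, against 7.96 and 7.95 on the control arrays, a difference of -0.37 (SE 0.117, limma adjusted p = 0.17). ATP5MC1, ATP5MC2 and ATP5MC3 encode the same mature c subunit of the rotor ring with different import sequences, and the other 2 genes differed by 0.02 and -0.00. The 2 probesets of ATP5MC2 disagreed, at -0.75 and 0.79, so that its mean near 0 describes neither.

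In the catalytic F1 head the differences were between -0.35 and 0.02. ATP5F1B, the catalytic beta subunit, had 11.92 and 11.96 on the mimic arrays, against 12.02 and 12.14 on the control arrays, a difference of -0.15 (95% interval -0.46 to 0.16). ATP5F1A, the alpha subunit, differed by -0.16, and ATP5F1C, the central shaft, by 0.02. ATP5F1D, part of the foot of that shaft, had 8.94 and 9.0 on the mimic arrays, against 9.19 and 9.45 on the control arrays, a difference of -0.35 (limma adjusted p = 0.255). ATP5F1E was read by 1 probeset within the range of the liver and neuron genes, with 4.98 and 5.10 on the mimic arrays, against 5.94 and 4.82 on the control arrays. Without control replicate 2 its difference of -0.34 became -0.91. Without control replicate 1 its sign turned, with a mimic mean of 5.04 against 4.82 on control replicate 2. The 4 peripheral stalk genes, ATP5PB, ATP5PD, ATP5PF and ATP5PO, which hold the head still, had a median of -0.17 and overlapped in all but ATP5PF. The small membrane subunits ATP5MG and ATP5ME, which shape the dimers of the enzyme, differed by -0.35 and -0.24, with no overlap in either.

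**Figure D2:**
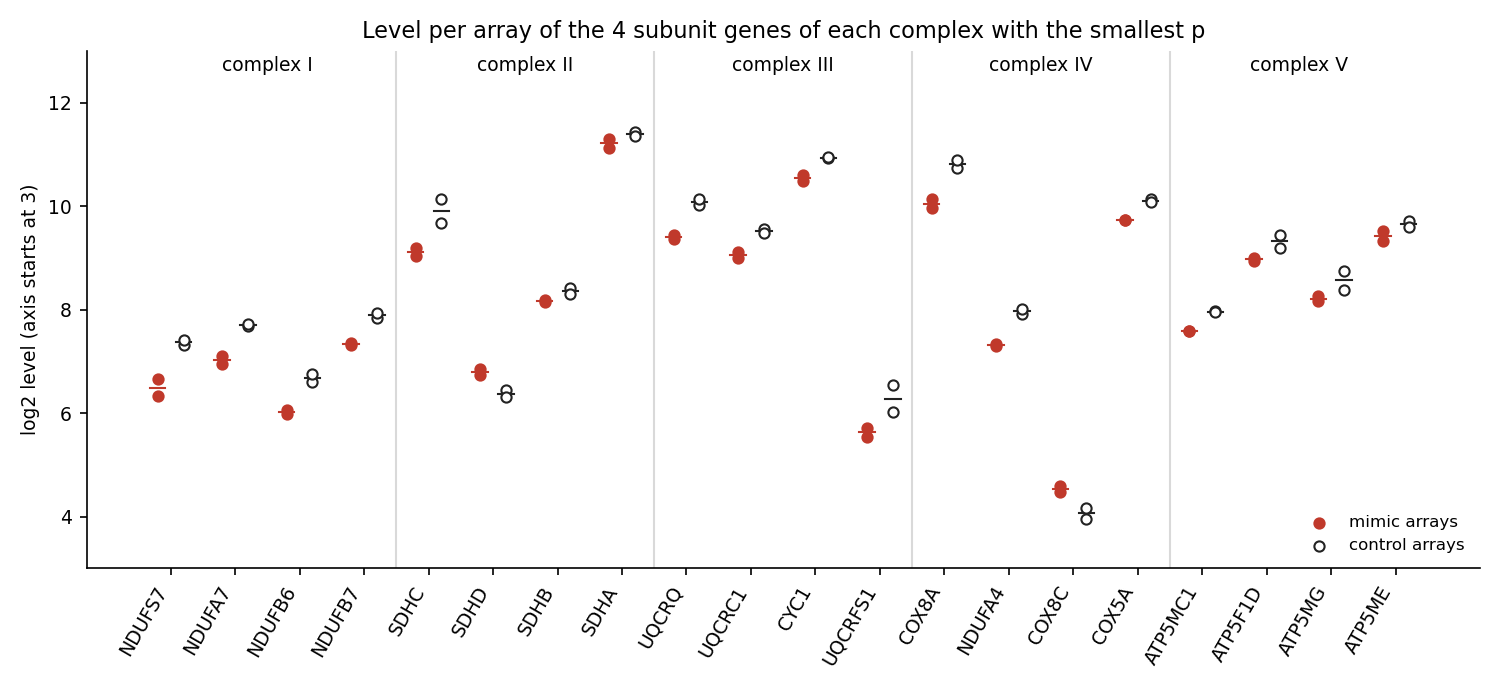
Log2 level on each of the 4 arrays of the 4 subunit genes with the smallest p in each complex, mimic arrays (filled) drawn to the left of control arrays (open), with short lines at the means. In NDUFS7, UQCRQ and COX8A the mimic points lie clear below the control points, and SDHD is drawn with its mimic points above.

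The 3 subunit genes that no probeset above the filter read had levels of 3.85 (ATP5MGL), 3.19 (COX6B2) and 2.95 (NDUFB3) without the filter. Their differences there were -0.34, 0.01 and -0.11. Of the 5 genes with a shared prefix and no subunit, COX7A2L, a factor that joins complexes III and IV into supercomplexes, had 9.94 and 9.83 on the mimic arrays, against 10.35 and 10.38 on the control arrays, a difference of -0.48 (limma adjusted p = 0.12). DMAC2 (platform symbol ATP5SL), which helps assemble the membrane arm of complex I, differed by -0.38. NDUFA4L2 (COXFA4L2), a hypoxia-inducible relative of NDUFA4, differed by 0.14, EMC8 by 0.08 and DMAC2L by 0.06, with overlap between the groups in all 3.

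The level of a gene moved with these differences over the whole table. The interquartile range of all probesets was 4.18 and 4.32 on the mimic arrays, against 4.25 and 4.52 on the control arrays, so that it did not separate the groups. Among all genes, those with a mean level under 5 had a median difference of 0.14, those at 7 to 8 of -0.09, those at 9 to 10 of -0.13 and those over 11 of -0.17. The subunit genes had a lower median than all genes in every level class from 5 up to 11: -0.34 against 0.09 at 5 to 6 (3 subunit genes), -0.32 against -0.02 at 6 to 7 (8), -0.34 against -0.09 at 7 to 8 (10), -0.20 against -0.11 at 8 to 9 (15), -0.37 against -0.13 at 9 to 10 (15) and -0.40 against -0.17 at 10 to 11 (7). Over 11, both stood at -0.17, over 10 subunit genes. The groups did not overlap, with mimic lower, in 13 of the 15 subunit genes at 9 to 10, and in 49.2% of all genes there. At 7 to 8 the absence of overlap held for 8 of the 10 subunit genes and for 40.3% of all genes. The gap was smaller at 8 to 9, with 9 of 15 against 45.7%, and over 11, with 7 of 10 against 60%, and under 5 it was 0 of 3 against 7.57%. After quantile normalization the median was -0.27 over the 76 genes, -0.30 for complex I, -0.42 for complex III and -0.16 for complex V. The part of the level trend in the subunit differences was not tested beyond these values.

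**Figure D3:**
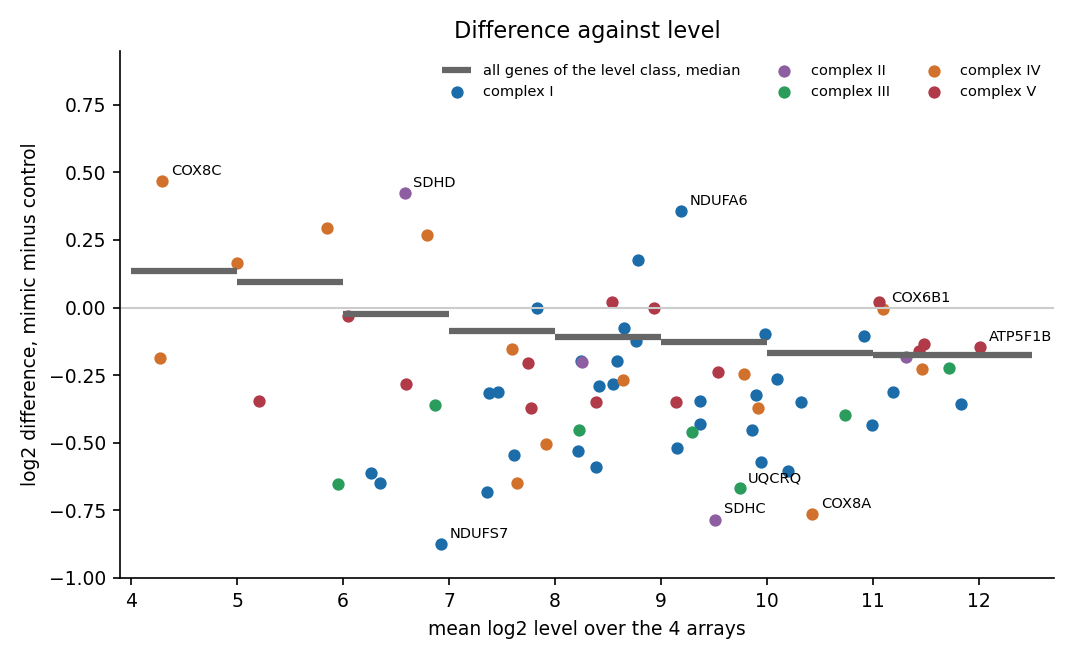
Log2 difference, mimic minus control, against the mean log2 level of each gene, with subunit genes coloured by complex over the medians of all genes per level class. Subunit genes from level 5 up to 11 lie mostly below the line of all genes, which runs from 0.14 under level 5 to -0.17 over level 11, and those over 11 lie around it.

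Within genes, the single probesets, most of which read 1 exon or part of one, mostly had the same sign. Of the 372 kept probesets of subunit genes, 301 (80.9%) were lower in the mimic cells, as 53.5% of all probesets were. No overlap below control was found in 216 (58.1%), against 27.1% of all probesets. In 29 there was no overlap above control, as in 33946 of all 163774 probesets. By limma over all probesets, 0 of the 372 reached an adjusted p of 0.05 in either direction. Of all probesets, 0.0946% did lower and 0.823% higher. Complex III had 36 of 45 probesets without overlap below control (80%), complex I 128 of 207 (61.8%) and complex V 28 of 67 (41.8%). All 8 probesets of NDUFS7 were without overlap below control, from -1.33 to -0.34, as were all 5 of COX8A, all 7 of CYC1 and all 7 of NDUFB5. NDUFS1 was lower in 23 of 23 probesets, 19 of them without overlap, and UQCRC1 in 14 of 16. NDUFA6 was higher in 8 of 9, 5 of them without overlap, so that its direction did not rest on a single probeset. The 2 probesets of NDUFA4 differed by -1.06 and -0.24, and the second was dim, with 4.92 and 4.53 on the mimic arrays, against 5.23 and 4.69 on the control arrays. Other genes were uneven too: the probesets of NDUFB7 ran from -1.47 to 0.12, of NDUFB6 from -1.17 to -0.16 and of COX5B from -0.95 to -0.11. Their brightest probesets differed by -0.16, -0.16 and -0.11, a smaller change than that of the gene. In NDUFB7 and NDUFB6 the groups overlapped in that probeset. Many of these genes have processed pseudogenes, and their part in the intensities was not tested.

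**Figure D4:**
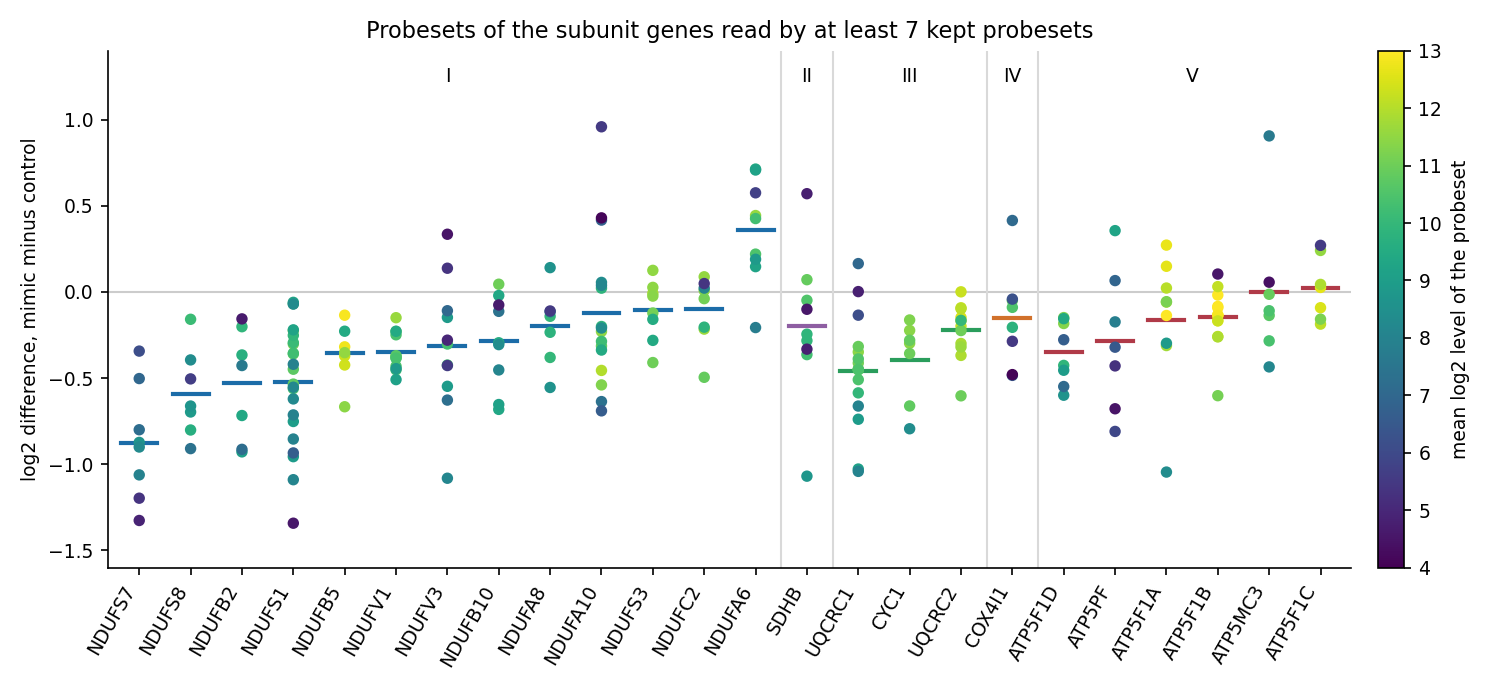
Log2 difference, mimic minus control, of each kept probeset of the subunit genes read by at least 7 such probesets, coloured by the probeset's mean log2 level, with a line at the mean of each gene. The NDUFS7, NDUFS1, NDUFV1, CYC1 and NDUFB5 points all lie below 0, and those of NDUFA6 lie above 0 in 8 of 9 cases.

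Genes that build, feed or control the chain were read from the same fit, and 0 genes of these lists reached an adjusted p of 0.05 by limma. Of 13 complex I assembly genes tested, 10 had a lower mean and 3 a higher one, and the median was -0.20. At an unadjusted p under 0.05, 5 had a lower value (12.8% of all genes) and 0 a higher one (7.66%). NUBPL, which delivers iron-sulfur clusters to complex I, had 7.24 and 7.33 on the mimic arrays, against 7.87 and 8.05 on the control arrays, a difference of -0.67 (limma adjusted p = 0.0767). TIMMDC1 and ACAD9, assembly factors of its membrane arm, differed by -0.52 and -0.39. Of 25 assembly genes of complexes II to V, 19 had a lower mean and 6 a higher one, with a median of -0.21. At an unadjusted p under 0.05, 9 were lower (12.8% of all genes) and 0 higher (7.66%). Among them UQCC3, needed for cytochrome b of complex III, differed by -0.74, COX15, which makes the haem a of complex IV, by -0.69, and COX20, a chaperone of that complex, by -0.55.

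Of 11 genes for the mobile carriers ubiquinone and cytochrome c, 3 were lower at that p (12.8% of all genes), all in ubiquinone synthesis, and 0 higher (7.66%). PDSS2, which makes the isoprenoid tail, had 5.64 and 5.75 on the mimic arrays, against 6.36 and 6.67 on the control arrays, a difference of -0.82 (limma adjusted p = 0.0715). COQ8B and COQ3 differed by -0.77 and -0.43, and CYCS, cytochrome c itself, by 0.38 (limma adjusted p = 0.28). In the citric acid cycle, 7 of 11 genes had a lower mean and 4 a higher one, with a median of -0.13. At an unadjusted p under 0.05, 1 was lower (12.8% of all genes), DLST, a subunit of the 2-oxoglutarate dehydrogenase complex, at -0.37, and 0 were higher (7.66%). The 7 with a lower mean had both mimic values below both control values, as 29.5% of all genes did. The median level of this list was 10.26, and at levels of 10 to 11 this held for 56.4% of all genes. The 4 with a higher mean were IDH3A at 0.33, SUCLA2 at 0.25, CS at 0.15 and OGDH at 0.087. Their mimic values both lay above both control values, as held for 20.5% of all genes.

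Among 16 regulators and genes of mitochondrial DNA expression, 0 were lower (12.8% of all genes) and 1 was higher (7.66%) at an unadjusted p under 0.05, with a median of 0.02. PPARGC1B, a coactivator of mitochondrial genes, had 6.18 and 6.13 on the mimic arrays, against 5.63 and 5.58 on the control arrays, a difference of 0.55 (limma adjusted p = 0.0911). NRF1 differed by 0.02, GABPA by 0.14, GABPB1 by 0.35, YY1 by -0.05 and TFAM by -0.11, none of them under that p. Of 20 import and inner-membrane genes, 12 had a lower mean and 8 a higher one, with a median of -0.09. The 4 that were lower at that p (12.8% of all genes) included TOMM20, a receptor of the outer-membrane import pore, at -0.51, and TIMM50 at -0.37. None was higher at that p (7.66% of all genes). Both mimic values were below both control values in 10 of the 20 (29.5% of all genes). The median level of this list was 9.14, and at levels of 9 to 10 this held for 49.2% of all genes. Both mimic values lay above both control values in 4 (20.5% of all genes). Those 4 were VDAC2, an outer-membrane channel, at 0.63, HSPD1 at 0.30, TIMM17A at 0.20 and HSPA9 at 0.069.

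The cells carried the markers of their label. The 10 luminal markers tested had a median level of 9.85, and the 8 fibroblast markers a median of 5.02, close to the liver and neuron genes. Summed over their list, luminal markers stood at 97.8 and 98.9 on the mimic arrays, against 99.2 and 100.9 on the control arrays. The fibroblast sums were 42.9 and 42.4 on the mimic arrays, against 41.1 and 39.7 on the control arrays, and the sums of 6 leukocyte markers 35.3 and 34.5 on the mimic arrays, against 34.8 and 34.2 on the control arrays. Among luminal markers, 3 of 10 had a lower value at an unadjusted p under 0.05 (12.8% of all genes), and their part in the subunit differences was not tested. Over all probesets, arrays of the same group correlated at 0.985 in the mimic group and 0.984 in the control group, and arrays of different groups at between 0.966 and 0.973.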

How the data were processed

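The authors deposited 1 table of log2 intensities per probeset for the 4 arrays, and per the submitters' processing notes it was made with Partek, RMA and the hg18 build; versions and order of steps are not given in the sources used here. The arrays keep unequal interquartile ranges, and no further normalization was applied. Of 232479 probesets, 216780 name 1 gene symbol, 2335 several and 13364 none in the platform annotation, and only those with 1 were used. Symbols were updated through RefSeq names. A gene's value was the mean of its probesets at or above the 25th percentile (4.08); 163774 probesets and 15717 genes remained.

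Groups were compared with limma 3.58.1 (lmFit and eBayes, two-sided, R 4.3.3), with 2 residual degrees of freedom and 5.29 after moderation, Benjamini-Hochberg adjustment over all genes and a threshold of 0.05. The scripts were tested on simulated data. An exact permutation test of 2 arrays against 2 cannot go below 0.333. The number of arrays limits the precision, and intervals are 95% intervals from limma. Genes named by rule are the 4 with the smallest p in each complex, the largest positive difference of each complex, and isoform pairs. Up to 3 genes of each other list were named too. Not all of these are printed with array values, and other names were added after their values were seen. The members, the gene lists and the tests were chosen with earlier results of these data known. Same-numbered arrays of the 2 groups deviated together (r = 0.435 over all genes, across genes, which are not independent replicates); the series describes pairs, but the labels do not say what a number stands for, so the block is an alternative. Other alternatives were quantile normalization, equal medians, other filters, other summaries of probesets, an intensity trend, another threshold and leaving out each array. Promoter windows came from RefSeq (GRCh38.p14), with all matches counted in Python 3.11.15; figures were drawn with matplotlib 3.10.9.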

Additional observations from a re-analysis of the deposited data

How the results depend on the processing

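The medians of complexes I to V stayed below 0 under every alternative run, but the counts of calls did not stay near those of the main analysis (363 genes and 0 of the 76 chain genes at an adjusted p under 0.05 by limma). With the replicate number as a block, 498 genes and 1 chain gene, COX8A, passed. At an unadjusted p under 0.05, 39 chain genes then had a lower value, against 29 in the main analysis. The share of all genes lower at that p rose too, from 12.8% to 18.9%. Quantile normalization gave 535 of 15720 genes and 2 chain genes, COX8A and NDUFA4. Without a filter on dim probesets 1433 genes and 13 chain genes passed, with an intensity trend 1594 and 19, at a threshold of 0.1 979 and 7, and, chosen after seeing the data, with genes of at least 3 probesets 949 and 5. The cause of these shifts was not tested, beyond the looser threshold and the fewer genes tested. The brightest probeset of each gene gave 122 genes past the threshold. It gave 14 chain genes below control at an unadjusted p under 0.05, where 6.04% of all genes were. Its medians were -0.21 (all), -0.22 (complex I), -0.038 (II), -0.35 (III), -0.096 (IV) and -0.17 (V). The complex IV median was -0.15 without the filter and -0.15 with genes of at least 3 probesets, and that of complex II -0.25 with the filter at the table's median. Dropping single arrays gave 171 genes past the threshold when mimic replicate 1 was left out, 186 for mimic replicate 2, 1690 for control replicate 1 and 690 for control replicate 2. Between 0 and 13 chain genes then passed it and 12 to 31 had a lower value at an unadjusted p under 0.05; the lone array was assumed to vary like the other group. The medians then lay from -0.35 to -0.22 (all), -0.41 to -0.28 (complex I), -0.24 to -0.14 (II), -0.45 to -0.38 (III), -0.27 to -0.15 (IV) and -0.25 to -0.15 (V). Some genes changed sign: COX6B1 to 0.039 with quantile normalization and 0.015 with equal medians, ATP5MC3 to 0.028 and 0.017, COX4I2 to 0.051 without the filter, ATP5F1C to -0.021 with the stricter filter, COX7B2 to -0.095 with the median of the probesets, and SDHB to 0.071, ATP5MC2 to -0.75 and COXFA4L2 to -0.085 with the brightest probeset. With 1 array left out, genes that took both signs included COX6B1 (-0.029 to 0.020), ATP5MC3 (-0.074 to 0.070), ATP5F1C (-0.080 to 0.12), ATP5MC2 (-0.18 to 0.22), COX7B2 (-0.15 to 0.74), COX7A1 (-0.29 to 0.62), COX6A2 (-0.099 to 0.64), COX4I2 (-0.46 to 0.087) and COXFA4L2 (-0.022 to 0.29). Not every chain gene was followed in this way. ATP5F1E, with a mimic mean of 5.04 between control values of 5.94 and 4.82, took both signs too. So did NDUFS4, with a mimic mean of 7.83 between control values of 7.62 and 8.04. Genes near the level of the liver and neuron genes, such as COX8C and ATP5F1E, are limited by signal over background.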

Other observations

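Probesets that name a subunit gene together with a neighbouring gene were left out of the levels above, because their signal cannot be given to either gene. The 5 probesets shared by NDUFA11 and FUT5 differed by between -0.80 and -0.22, mimic minus control, with a smallest limma adjusted p of 0.199 over probesets. The lowest of them had 7.80 and 7.91 on the mimic arrays, against 8.64 and 8.68 on the control arrays. The 4 probesets shared by NDUFB8 and SEC31B differed by between -0.32 and 0.09, the 6 shared by COX6B2 and FAM71E2 by between -0.37 and 0.23, and the 1 shared by YJEFN3 and NDUFA13 by 0.08.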
